A study of Mus musculus with 22 samples.

Results

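At postnatal day 0 (P0), the day of birth, 2 single photoreceptors of the mouse retina, H1 and E1, were compared with 9 other single retinal neurons of that day: 4 ganglion cells (A3, C6, A6 and F1) and 5 amacrine cells (A4, D1, F6, G3 and B1). These 11 cells were all the P0 cells among the 22 cells of the series, chosen by the stage and cell type in their labels, and the adult rod was left out. Each cell was picked from a papain-dissociated retina and its messenger RNA was copied into cDNA, amplified by 35 cycles of PCR and hybridised alone to an Affymetrix mouse expression array. The labels of H1 and E1 name the CD1 background, while those of the 9 other cells name no strain, and no genotype, treatment or agent is named for any of the 11. No label names the animal, litter or pool of a cell. Each cell type at P0 therefore counts as 1 sample, no test was possible between types, and the values are given cell by cell. The design text states that cells were assigned to their types after profiling, so the markers that distinguish these types are not independent evidence of them.

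Photoreceptors are the light-sensing neurons of the retina. Their fate is set by the homeodomain factors Otx2 and Crx, after which the leucine zipper factor Nrl directs cells to become rods rather than cones. A mature photoreceptor carries an outer segment, a stack of membrane discs that holds the phototransduction machinery, and a ribbon synapse. At birth most photoreceptors of the mouse are young rods without an outer segment. Ganglion cells send the axons of the optic nerve, and amacrine cells are inhibitory interneurons with wide dendrites.

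Signals are on a log2 scale throughout, after each array was scaled to a 2% trimmed mean of 500 and raised to a floor of 200 (log2 7.64). A gene is called held by a cell at a signal of 1000 or more (log2 9.97), and the 8843 genes held by at least 1 of the 11 cells were compared. H1 held 3091 genes (35.0%) and E1 held 2272 (25.7%), within the range of 1953 to 4355 among the 9 other cells. Of the compared genes, ganglion cells A3, C6, A6 and F1 held 39.7%, 35.2%, 26.3% and 49.2%, and amacrine cells A4, D1, F6, G3 and B1 held 22.1%, 23.2%, 46.9%, 33.9% and 28.3%. The array of amacrine cell B1 had been deposited at a lower scale and was multiplied by 27.6. For a group of cells at the floor, a difference is measured from the floor and is a lower bound. Of 16 photoreceptor transcription factors H1 and E1 held 8 and 9, against 0 to 5 in the 9 others. The ganglion cells held 8 to 12 of 16 ganglion cell genes, and the amacrine cells 1 or 2. Of 18 amacrine cell genes the amacrine cells held 4 to 8 and the ganglion cells 2 to 4. For D1 (4) and F6 (8) that count was near the cell's share of all compared genes.

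Both photoreceptors shared a compact set of photoreceptor genes at high signal that the 9 other neurons did not hold. The difference reported for a gene is the mean of H1 and E1 minus the midpoint between the ganglion mean and the amacrine mean. The 15 largest differences among genes that both photoreceptors held above all 9 other cells belonged to Rbp3, Pdc, Cdhr1, Crx, Pitpnm3, Rom1, Ndrg1, Slc2a1, Sag, Tulp1, Nrl, Frmpd2, Ankrd33b, Otx2 and Prom1, and ran from 7.41 down to 6.31. Their signals in H1 and E1 lay between 13.32 and 15.23, and the largest gap between H1 and E1 for any of them was 1.32. The highest signal of any of the 15 in the other cells was 9.88, and 6 of the 15 were at the floor in all 9. Of the 15, 10 belong to the lists of photoreceptor genes described below, which were drawn up with earlier results of these data known.

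**Figure D1:**
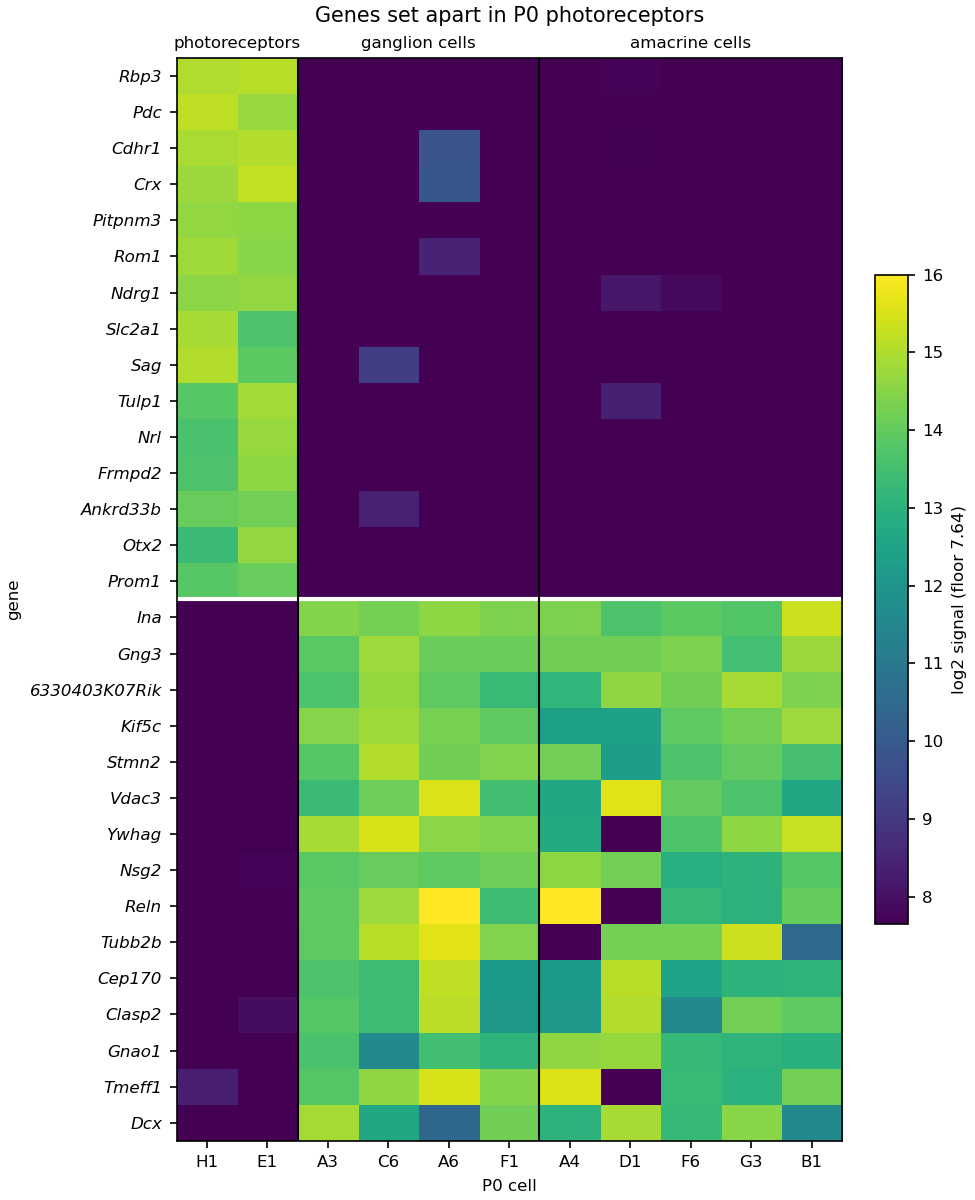
Log2 signal in each of the 11 P0 cells (columns, grouped by type) for the 15 genes furthest above the other neurons in both photoreceptors (upper rows) and the 15 genes furthest below them (lower rows). The upper genes are at 13.32 or more in H1 and E1 and at 9.88 or less elsewhere, and 12 of the 15 lower genes are at the floor of 7.64 in both photoreceptors.

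Rbp3, which encodes the retinoid carrier of the matrix around photoreceptors, had signals of 15.02 in H1 and 15.11 in E1. It was at the floor in 8 of the 9 other cells and at 7.73 in D1. Pdc, the transducin-binding protein phosducin, was at 15.21 in H1 and 14.70 in E1, and at the floor in all 9 others. The lack of overlap with the other cells was a condition for a gene to be among these 15. Cdhr1, a cadherin at the base of the outer segment, was at 14.94 in H1 and 15.04 in E1, against 9.85 in A6, 7.69 in D1 and the floor in 7 cells. The other 5 of the 15 are outside the photoreceptor lists, among them Slc2a1 and Ndrg1. Slc2a1, the glucose transporter GLUT1, was at 14.89 in H1 and 13.66 in E1 and at the floor in all 9 others. Ndrg1, a gene known to respond to low oxygen and differentiation, was at 14.56 in H1 and 14.66 in E1, with 8.18 in D1, 7.82 in F6 and the floor elsewhere.

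The promoters of the first 5 of these genes are shown because the set includes Crx and appears in the same cells as Otx2, 2 factors whose DNA-binding domains are known to prefer the letters TAATCC. Each sequence is the 250 bases before the gene's start in the RefSeq annotation of GRCm38.p6, read 5′ to 3′ on the gene's strand, with TAATCC or its reverse complement GGATTA in capitals. The window lies at chr14:33953753-33954002 on the plus strand for Rbp3, chr1:150319167-150319416 on the plus strand for Pdc, chr14:37098348-37098597 on the minus strand for Cdhr1, chr7:15879956-15880205 on the minus strand for Crx and chr11:72135890-72136139 on the minus strand for Pitpnm3.
Rbp3: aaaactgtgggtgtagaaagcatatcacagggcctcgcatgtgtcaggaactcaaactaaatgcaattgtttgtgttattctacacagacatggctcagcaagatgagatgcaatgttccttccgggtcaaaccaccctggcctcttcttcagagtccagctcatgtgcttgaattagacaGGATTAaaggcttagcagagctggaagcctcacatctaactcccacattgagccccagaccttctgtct
Pdc: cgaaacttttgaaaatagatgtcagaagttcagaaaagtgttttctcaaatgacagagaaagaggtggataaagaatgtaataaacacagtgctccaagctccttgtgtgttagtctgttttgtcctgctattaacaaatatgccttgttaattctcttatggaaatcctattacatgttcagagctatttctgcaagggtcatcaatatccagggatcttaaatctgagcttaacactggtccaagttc
Cdhr1: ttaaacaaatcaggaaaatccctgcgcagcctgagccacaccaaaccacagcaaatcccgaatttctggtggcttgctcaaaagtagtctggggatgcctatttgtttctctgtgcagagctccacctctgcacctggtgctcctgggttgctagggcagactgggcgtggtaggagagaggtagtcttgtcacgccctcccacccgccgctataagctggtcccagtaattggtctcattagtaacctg
Crx: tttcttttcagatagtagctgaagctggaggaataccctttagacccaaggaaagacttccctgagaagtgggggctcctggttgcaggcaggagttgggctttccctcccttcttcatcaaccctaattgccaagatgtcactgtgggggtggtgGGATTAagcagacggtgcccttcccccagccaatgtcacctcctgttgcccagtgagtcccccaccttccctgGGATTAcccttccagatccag
Pitpnm3: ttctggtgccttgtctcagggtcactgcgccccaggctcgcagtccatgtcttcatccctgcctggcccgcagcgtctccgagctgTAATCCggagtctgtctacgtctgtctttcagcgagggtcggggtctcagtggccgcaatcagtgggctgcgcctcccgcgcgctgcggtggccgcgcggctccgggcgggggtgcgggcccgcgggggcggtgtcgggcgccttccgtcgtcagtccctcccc

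The letters occurred once upstream of Rbp3, beginning 69 bases before the start, at 94 and 21 bases before the start of Crx itself, and at 164 bases before the start of Pitpnm3. Neither Pdc nor Cdhr1 had them in this window. Searched on both strands, the motif was present in 6.38% of all 27025 promoters of the table and in 4.76% of the 7227 promoters of the compared genes. Among genes held by both photoreceptors and by none of the 9 others it was present in 10 of 62 (16.1%), namely Ankrd33b, Crx, E430024I08Rik, Fam149a, Mga, Pitpnm3, Rbp3, Sag, Tgfb2 and Zfp942. Among all genes higher in the photoreceptors, in the sense given below, it was present in 21 of 298 (7.05%), and among the lower genes in 9 of 243 (3.7%). For genes held by H1 and no other P0 cell the share was 3.63%, and for genes held by E1 alone it was 4.22%. These are counts of letters, not of bound sites, and the difference between the shares was not tested.

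Across all compared genes, 361 (4.08%) were higher in the photoreceptors, meaning a difference of 3 or more with both H1 and E1 holding the gene. In the other direction 309 (3.49%) were lower, meaning a difference of -3 or less with neither holding it. The median difference over all compared genes was -0.47. Single cells of 1 type also differ widely on this scale: H1 and E1 themselves lay 3 or more apart at 30.6% of the compared genes. A count of higher or lower genes is therefore a description of these 11 cells. Both photoreceptors lay above all 9 others for 233 genes (2.63%), of which both held 207 (2.34%), and both lay below all 9 for 84 (0.95%).

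The 3 lists of photoreceptor genes (transcription factors, phototransduction, outer segment and retinoid handling) had 55 measured members. Of these, 16 (29.1%) were higher and 0 were lower, against 4.08% and 3.49% of all compared genes. Only 34 of the 55 were held by any of the 11 cells. H1 held 30 of the 55 and E1 held 20, whereas the 9 other cells held between 2 (A6) and 8 (F6).

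Of 16 measured transcription factors of photoreceptors, 6 were higher and none was lower. Otx2, which starts the photoreceptor programme, was at 13.32 in H1 and 14.64 in E1 and at the floor in all 9 others. Crx, the homeodomain factor it activates, was at 14.73 and 15.23, against 9.88 in A6 and the floor in the other cells. Nrl, the rod determinant, was at 13.62 and 14.71, with 7.67 in A6 and the floor elsewhere. These 3 factors are among the 15 genes above, which were chosen for lying above all 9 other cells in both photoreceptors. The other 3 higher factors were held by some of the other neurons too. Samd11, a nuclear protein of rods that works with Crx, was at 14.78 in H1 and 14.92 in E1, and 2 other cells held it, F1 at 10.32 and F6 at 10.61. Pias3, a SUMO ligase that acts on rod factors, was at 12.43 and 14.08, and was held by C6 at 11.16 and G3 at 11.33. Neurod1, a basic helix-loop-helix factor of photoreceptors and amacrine cells, was at 14.21 and 14.77, and 5 other cells held it: F1 at 12.81, A4 at 14.40, F6 at 13.56, G3 at 11.56 and B1 at 13.26. Neurod1 therefore overlapped, with A4 above H1.

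Rorb and Mef2d were held by both photoreceptors without reaching a difference of 3. Rorb, a nuclear receptor upstream of Nrl, was at 12.95 in H1 and 11.62 in E1, inside the range of the other cells, which ran from the floor to 13.97. Mef2d, a factor that works with Crx on rod genes, was at 10.77 in H1 and 13.82 in E1, against a highest value of 13.51 in G3. Prdm1, which holds back the bipolar fate in young photoreceptors, was held by E1 alone at 13.61, was at the floor in H1 and reached 8.90 in A6. The other 7 members, Mef2c, Esrrb, Casz1, Samd7, Sall3 and the cone factors Thrb and Rxrg, were held by neither photoreceptor. Rxrg was instead held by 3 ganglion cells, A3 at 12.05, C6 at 12.43 and F1 at 11.77.

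The phototransduction list showed H1 and E1 to be unlike each other. Of 20 measured members, 4 were higher, 7 were held by H1 without E1, none by E1 without H1, and 9 by neither. Of all compared genes, 4.08% were higher, 22.2% were held by H1 without E1 and 12.9% by E1 without H1. After quantile normalization 7 members were still held by H1 without E1, and 2 by E1 without H1. The 4 higher members were Pdc and Sag, with Pde6b and Unc119. Sag, the arrestin of rods, was at 15.04 in H1 and 13.88 in E1, with 9.20 in C6 and the floor in the other 8. Pde6b, the beta subunit of the rod phosphodiesterase, was at 12.50 and 14.20, with 8.27 in B1 and the floor in the other 8. Unc119, a carrier of lipid-modified transducin, was at 11.61 and 15.29 but also at 14.83 in D1, so H1 overlapped the other cells.

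Of the 11 cells, H1 alone held the rod channel and the alpha subunit of rod transducin. Cnga1, a subunit of the cyclic nucleotide-gated channel, was at 13.77 in H1 and at the floor in E1 and in all 9 others. Its partner Cngb1 was at 13.87 in H1, 8.38 in B1 and the floor elsewhere. Gnat1, that alpha subunit, was at 12.46 in H1, 9.07 in A6, 7.68 in C6 and the floor in E1. Pde6g, the inhibitory subunit of the phosphodiesterase, was at 13.79 in H1, 7.96 in E1 and 8.92 in A6. In these 4 genes H1 stood above every other P0 cell and E1 did not. Rgs9bp and Gnb5, both parts of the complex that switches transducin off, were at 11.49 and 12.98 in H1 and at the floor in E1, and 1 other cell held each of them, F6 at 11.15 for Rgs9bp and A4 at 10.51 for Gnb5. Gnb1, the beta subunit of rod transducin, which many neurons also use, depended on the probe set: 14.20 in H1 and 7.72 in E1 on the chosen probe set, and 14.25 and 13.01 on a second. Pde6a, Slc24a1, Gucy2e and Grk1, which also act in the rod cascade, were at the floor in both photoreceptors, and Rcvrn reached 9.68 in H1. Gngt1, Guca1a, Guca1b and Rgs9 were under the threshold in all 11 cells, and 2 of the 22 listed members are not analysed here.

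Among 19 measured genes of the outer segment and retinoid handling, 6 were higher, 5 were held by H1 without E1 and 1 by E1 without H1. Of all compared genes 4.08% were higher, 22.2% were held by H1 without E1 and 12.9% by E1 without H1. The count for H1 without E1 is thus near its share, and it was 3 of 19 after quantile normalization. Rom1, a tetraspanin of the disc rim, was at 14.81 in H1 and 14.50 in E1, with 8.48 in A6. Prom1, which acts in disc formation, was at 13.84 and 14.06 and at the floor in all 9 others. Tulp1, which acts in protein transport to the outer segment, was at 13.81 and 14.83, with 8.38 in D1. All 3, like Rbp3 and Cdhr1, are among the 15 genes chosen above for no overlap with the other cells. Rpgrip1, a protein of the connecting cilium, was at 14.11 and 14.30, above a highest value of 12.95 in D1, and 3 other cells held it. The genes held by H1 and not E1 were Rp1 (11.74 in H1), a microtubule protein of the outer segment, the ciliary kinase Mak (12.30, with 8.62 in E1), the ciliary proteins Rpgr (13.49) and Cep290 (10.57), and Crb1 (11.56), a polarity protein. Of these, Rp1 and Mak were at the floor in all 9 other cells. Reep6, which acts in membrane transport in rods, ran the other way at 13.79 in E1 and the floor in H1. Prph2, the disc rim partner of Rom1, was at the floor in all 11 cells, and Abca4, Rdh12, Aipl1 and Fscn2 were held by none.

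Cone genes were mostly undetected. Of 11 measured members, H1 held 1 and E1 held 3, while the ganglion cells held 0 or 1 and the amacrine cells none. Of all compared genes H1 held 35.0% and E1 25.7%, so the count of E1 is near its share. Gnb3, a G protein beta subunit of cones and ON bipolar cells, was at 12.55 in H1 and 15.03 in E1 and at the floor in all 9 others, a difference of 6.14. Gngt2, the gamma subunit of cone transducin, was at 13.52 in E1 and 8.97 in H1, and Cngb3, a subunit of the cone channel, was at 12.26 in E1 and the floor in H1. No other P0 neuron held either gene. Of the same list, Opn1sw, Arr3, Gnat2, Pde6c and Opn1mw were at the floor in both photoreceptors.

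In the synapse list 5 of 19 members were higher and 1 was lower, against 4.08% and 3.49% of all compared genes. Only 1 of the 19 lay above all 9 others in both photoreceptors, and the median difference of the list was 0.0. Cplx3, a complexin of ribbon synapses, was at 10.55 in H1 and 14.10 in E1, with 12.69 in D1 and the floor in the other 8, so H1 overlapped D1. Egflam, which encodes pikachurin of the photoreceptor synaptic cleft, was at 10.28 and 13.32 and at the floor in all 9 others. Ctbp2, the gene of the ribbon protein RIBEYE, was at 11.75 and 12.69, but F6 at 13.63 exceeded both. Sv2b and Stx3 made up the 5. Bsn, the active zone scaffold bassoon, was at the floor in both photoreceptors, while 7 of 9 other cells held it, up to 13.75 in A4. Slc17a7, the glutamate transporter of photoreceptor terminals, and Cacna1f, their calcium channel, were at the floor in all 11 cells.

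Genes of the energy supply differed member by member. Of 17 measured, 2 were higher and 1 was lower, against 4.08% and 3.49% of all compared genes. Besides Slc2a1, Ldha was higher: this lactate dehydrogenase subunit, typical of photoreceptors, was at 15.63 in H1 and 15.91 in E1 and ranged from 7.93 (A6) to 15.39 (G3) in the others. Both photoreceptors exceeded all 9, by a narrow margin over G3. Ldhb, the other main subunit, was at 12.85 in H1 and the floor in E1, and all 9 others held it, from 10.34 to 13.65. Pfkp, an isoform of phosphofructokinase, was lower by 5.35, at 8.41 in H1 and the floor in E1 against 10.27 to 15.29 in the others. Slc2a3, the neuronal glucose transporter GLUT3, was at the floor in both and held by 3 others.

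The photoreceptors held fewer cytoskeletal and axonal genes of the neurite list than every ganglion and amacrine cell. Of its 32 genes, 15 were lower and none was higher, against 3.49% and 4.08% of all compared genes. In both photoreceptors 12 lay below all 9 other cells, against 0.95% of all compared genes. The median difference of the list was -4.13, against -0.47 over all compared genes. The difference was negative for all 32 members, or for 29 after quantile normalization. H1 held 10 of the 32 and E1 held 5 (9 each after quantile normalization), against 25 to 31 in the ganglion cells and 18 to 25 in the amacrine cells. Of all compared genes H1 held 35.0% and E1 25.7%, so the count of H1 is near its share. With the mean over all probe sets of a gene in place of its brightest, the median was -1.95.

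The 15 largest negative differences, among genes neither photoreceptor held and at least 7 of the 9 others did, belonged to Ina, Gng3, 6330403K07Rik, Kif5c, Stmn2, Vdac3, Ywhag, Nsg2, Reln, Tubb2b, Cep170, Clasp2, Gnao1, Tmeff1 and Dcx. They ran from -6.66 to -5.61. Of the 15, 12 were at the floor in both photoreceptors, and all 9 other cells held 11 of them. Ina, the neurofilament protein alpha-internexin, was at the floor in H1 and E1. Its signals were 14.46, 14.26, 14.56 and 14.36 in ganglion cells A3, C6, A6 and F1. They were 14.34, 13.65, 13.90, 13.72 and 15.36 in amacrine cells A4, D1, F6, G3 and B1. The other neurons thus held Ina within a span of less than 2 units. Gng3, a neuronal G protein gamma subunit, was at the floor in both photoreceptors and held by all 9 others, up to 14.77 in C6. Stmn2, a regulator of microtubules in growing axons, was at the floor in both and between 12.32 and 15.02 in the others. Dcx, the microtubule protein doublecortin of young neurons, spread more widely, between 10.47 and 14.91.

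Outside the cytoskeleton, Gnao1, the most common G protein alpha subunit of neurons, was at the floor in both photoreceptors and between 11.65 and 14.69 elsewhere. Reln, the secreted protein reelin, was at the floor in both photoreceptors and in D1, and between 13.03 and 16.06 in the other 8. Vdac3, a channel of the outer mitochondrial membrane, was at the floor in both and between 12.62 and 15.58 elsewhere. General neurite genes were not all absent: Stmn1 was at 13.85 in H1 and 15.31 in E1, and Tuba1a was at 15.65 and 15.10. For 5 of the 15, Kif5c, Ywhag, Clasp2, Gnao1 and Dcx, the difference was smaller than 3 in size when averaged over all probe sets of the gene, and the same held for Pitpnm3 and Ankrd33b among the higher genes.

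**Figure D2:**
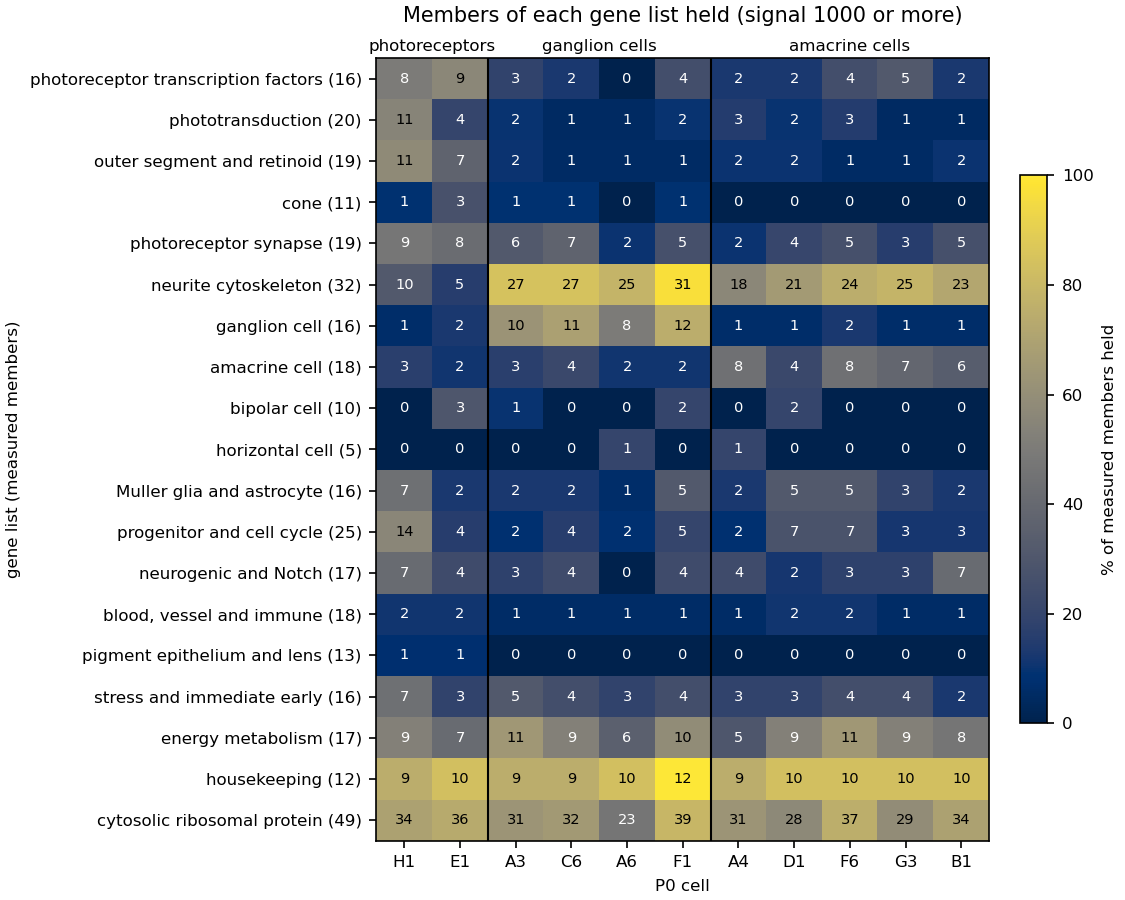
Number of measured members of each gene list that each P0 cell held (signal of 1000 or more), with colour showing the percentage of the measured members. Both photoreceptors exceed the other cells in the transcription factor list (8 and 9 of 16) and outer segment list (11 and 7 of 19). The same holds for the phototransduction list (11 and 4 of 20, against 3 at most). H1 exceeds the other cells in the progenitor list with 14 of 25. Both are below the other cells in the neurite list with 10 and 5 of 32.

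H1 and E1 held few ganglion, amacrine and horizontal cell genes, which was not particular to them. Of all compared genes H1 held 35.0% and E1 25.7%. Of 16 ganglion cell genes, H1 held 1 (L1cam) and E1 held 2 (Sncg and Atoh7), against 1 or 2 in the amacrine cells. The ganglion factor genes Isl1 and Ebf3 were lower and at the floor in both photoreceptors. Isl1 was held by C6 and A6 and also by amacrine cells F6 and B1. Of 18 amacrine genes, H1 held 3, among them Pax6 (13.90), and E1 held 2, among them Gad1 (13.92). The ganglion cells held 2 to 4 of the 18 and the amacrine cells 4 to 8. Tfap2b, an amacrine transcription factor held by all 5 amacrine cells between 13.58 and 15.93, was the lower member and was at the floor in H1, E1 and all 4 ganglion cells. None of the 5 horizontal cell genes was held by a photoreceptor, and each other cell held 0 or 1.

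Housekeeping genes gave no difference of 3 in either direction. Of 12 measured, 8 were held by all 11 cells, with Gapdh at 15.30 in H1, 14.52 in E1 and 14.46 to 16.62 in the others. Among 49 cytosolic ribosomal protein genes 0 were higher and 0 were lower, H1 held 34 and E1 36, and 19 were held by all 11 cells. Both photoreceptors were within the range of 23 to 39 of the other cells.

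H1 and E1 were then set against each other gene by gene. Both held 1131 genes (12.8% of those compared), H1 alone of the pair held 1960 (22.2%) and E1 alone of the pair held 1141 (12.9%). H1 exceeded E1 by 3 or more at 1653 genes (18.7%), and E1 exceeded H1 by as much at 1054 (11.9%). The excess on the side of H1 rested on the scaling: of the genes held by only 1 of the pair, 63.2% were held by H1, but after quantile normalization 49.8% were, with 1685 genes for H1 and 1697 for E1. Most of these genes were far from the threshold in the second cell. E1 was at the floor for 87.4% of the genes held by H1 only, and H1 was at the floor for 76.5% of those held by E1 only. Signals between 500 and 1000 in the second cell made up 3.06% and 9.9%. Just inside the threshold for both lay Hexim2, Cox5a and Kdm7a, with a lower signal of 1005, 1006 and 1006, and just outside lay Ap2s1, Faap20 and Fth1, with 998, 993 and 987.

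By overlap the 2 photoreceptors lay within the range of amacrine pairs and below that of ganglion pairs. H1 overlapped more with some cells of other types than with E1. H1 and E1 shared 26.7% of the genes that either held, and the Spearman correlation of their signals was 0.235 over the 8843 compared genes, which are not independent replicates. The 10 pairs of amacrine cells shared 23.8% to 37.7%, with correlations of 0.233 to 0.380, and the 6 pairs of ganglion cells shared 29.1% to 43.0%, with 0.258 to 0.448. Pairs of a photoreceptor and an amacrine cell shared 19.6% to 33.0%, with 0.158 to 0.261. Pairs of a photoreceptor and a ganglion cell shared 20.4% to 32.5%, with 0.136 to 0.239. The values for H1 and E1 fell inside the ranges of the amacrine pairs and of the mixed pairs, and below those of the ganglion pairs. H1 shared more with A3, C6, F1, F6, G3 and B1 (27.2% to 33.0%) than with E1, and less with A6, A4 and D1. E1 shared more only with F6 (27.2%). Each share depends also on how many genes the cells of a pair held.

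The genes held by both photoreceptors and those held by only 1 differed in how many of the other 9 neurons held them. Those 9 cells entered the choice of each gene's probe set, so their values are not independent of these classes. A gene held by both photoreceptors was held by a median of 5 of the 9 other cells, a gene held by H1 only by 3, and a gene held by E1 only by 2. All 9 others held 158 (14.0%) of the genes of both, 50 (2.55%) of the genes of H1 only and 13 (1.14%) of those of E1 only. None of the 9 held 76 (6.72%), 326 (16.6%) and 213 (18.7%) respectively. At least 5 of the 9 others held 648 (57.3%) of the genes of both, so most genes common to the photoreceptors were widely held by P0 neurons, and the 76 photoreceptor-restricted genes were 0.859% of those compared.

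**Figure D3:**
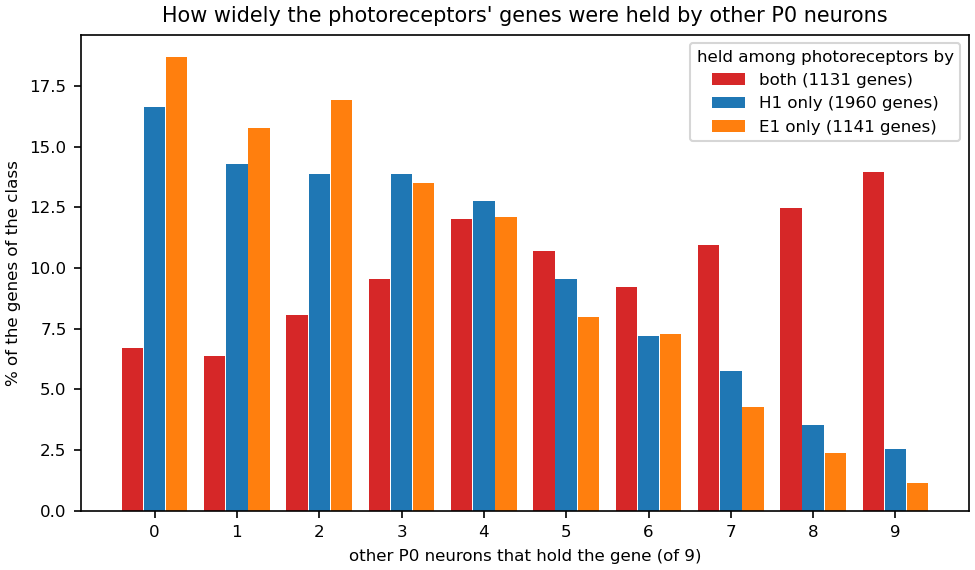
Percentage of the genes of each class (held by both photoreceptors, by H1 only, by E1 only) that are held by 0 to 9 of the other 9 P0 neurons. The class of both rises to 14.0% at 9 cells, while the classes of a single photoreceptor are largest at 0 cells, 16.6% for H1 only and 18.7% for E1 only.

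The 76 genes restricted to both photoreceptors were higher in E1 for 52 and higher in H1 for 24, with median signals of 12.25 in H1 and 13.33 in E1. The same tilt held over all 1131 genes of both, with medians of 12.47 and 13.24. Of the 76, 16 were in a list: besides the 11 in the 3 photoreceptor lists they were Gnb3, Egflam, Slc2a1, Notch1 and Fabp7. The following were picked from the remainder after their values were seen. Rd3, which controls the retinal guanylate cyclases, was at 12.61 in H1 and 13.88 in E1. Prcd, a small protein of rod discs, was at 10.67 and 13.31. Slc1a2, a glutamate transporter, was at 13.37 and 13.75, and Rxra, a retinoid X receptor, was at 12.12 and 12.26. All 4 were held by no other P0 neuron, and E1 was the higher of the pair in each. These values rest on the chosen probe set. The difference was under 1 in size on 4 of 5 probe sets of Slc1a2, 2 of 3 of Rxra and 1 of 2 of Rd3, while Prcd had only 1.

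Genes of other retinal cells and states were unevenly divided between the photoreceptors. Of 25 progenitor and cell cycle genes, H1 held 14 and E1 held 4, against 2 to 7 in the 9 other cells. After quantile normalization H1 and E1 still held 14 and 4, against 2 to 10. Of the 25, 18 were compared, and over all compared genes H1 held 35.0% and E1 25.7%. Ccnd1, the cyclin of retinal progenitors, was at 15.11 in H1 and 7.76 in E1, and 4 other cells held it, up to 14.60 in D1. Sox2, a progenitor factor kept by some amacrine cells, was at 13.34 in H1, the floor in E1, 14.78 in F6 and 15.07 in B1. Pcna, the replication clamp, was at 14.18 in H1 and the floor in E1, and 4 other cells held it. H1 also held Mcm2 (11.60), Mcm6 (11.42) and Mcm3, parts of the replication helicase, and Sfrp2 (11.52), a secreted Wnt modulator, all at the floor in E1. Other cell cycle members of the list were not held by either: Mki67 was at the floor in both, Cdk1 reached 7.83 in E1 and Top2a 7.71 in H1. Rax, an eye field and photoreceptor factor, was at 12.70 in E1 and 8.09 in H1.

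In the glial list H1 again held more members than E1. Of 16 genes of Müller glia and astrocytes, H1 held 7 and E1 held 2, against 1 to 5 in the other cells. Of the 16, 10 were compared, and over all compared genes H1 held 35.0% and E1 25.7%. Rlbp1, a retinoid-binding protein of Müller glia, was at 12.99 in H1 and at the floor in the other 10 cells. Clu, the secreted chaperone clusterin, was at 13.13 in H1 and held by no other cell. Glul, glutamine synthetase, was at 13.27 in H1 and the floor in E1, but 5 other cells held it, up to 12.06 in A4. H1 also held Dkk3 (13.69), Vim and Car2 (13.45), each at the floor in E1 and held by some of the other neurons. Slc1a3, Aqp4, Apoe, Gfap and S100b, of the same list, were at the floor in both photoreceptors. Fabp7, a lipid carrier of radial glia, was the exception held by both, at 12.79 in H1 and 14.82 in E1, with 8.27 in C6 as the only other signal above the floor. The part of glial or progenitor RNA in the profile of H1 was not tested.

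Of 16 stress and immediate early genes H1 held 7, E1 held 3 and the other cells 2 to 5. Neither photoreceptor held 9, and 1 was higher, where 4.08% of all compared genes were higher. Of the 16, 8 were compared, and over all compared genes H1 held 35.0% and E1 25.7%. The median difference of the list was -0.01. Among the immediate early members, Fos was at 15.19 and Egr1 at 14.60 in H1, and both were at the floor in E1, whereas Fosb, Junb, Atf3 and Ier2 were at the floor in both. Neither was particular to H1, since A3, C6, A6 and A4 held Fos between 12.86 and 14.11, and D1 held Egr1 at 14.72. Dusp1, a phosphatase induced with them, was at 12.82 in H1, at the floor in E1 and at 11.01 in A3. All 3 are known as genes that cells switch on quickly after a stimulus. Ddit3, a stress factor, was held by both photoreceptors, at 11.18 and 13.06, and by F6 and G3.

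In the neurogenic and Notch list of 17 genes, H1 held 7, E1 held 4 and 2 were higher, where 4.08% of all compared genes were higher. Of the 17, 13 were compared, and over all compared genes H1 held 35.0% and E1 25.7%. Notch1, the receptor, was at 10.86 in H1 and 13.80 in E1, with 8.27 in A4 and 7.84 in B1 as the only signals above the floor elsewhere. Insm1, a zinc finger factor of newly formed neurons, was at 14.15 and 12.55, and 4 other cells held it, up to 14.25 in A4. Sox4 and Sox11, paired factors of young neurons, were at 14.89 and 12.98 in H1 and at the floor in E1, and 8 and 5 of the other neurons held them. Dll1, a Notch ligand, and Mfng, which modifies Notch, were at 12.78 and 13.60 in H1 and at the floor in E1. Neurod4, a helix-loop-helix factor of bipolar and photoreceptor precursors, showed the reverse, at 14.66 in E1 and at the floor in the other 10 cells.

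Apart from list members, the highest signals of H1 among genes under 1000 in E1 were those of Srsf3 (15.30), Hnrnpu (15.02), Cct6a (14.94), Gadd45a (14.69), Psma1 (14.68), Atp5o (14.62), Eif4h (14.59) and Miat (14.56). These are mainly general genes of RNA processing, protein folding and energy supply, and all but Gadd45a were held by at least 6 of the 9 other neurons. Srsf3, a splicing factor, was held by all 9 between 13.87 and 16.12. Pax6, the eye field and amacrine factor, was also held by all 9, between 13.63 and 16.27, and was at 13.90 in H1 and at the floor in E1. The genes held by H1 and by no other P0 cell were led by Etv5, Crym, Sez6, Tcaim, Cngb1 and Mybl1. Etv5, a factor downstream of growth factor signalling, was at 14.16 in H1, and Crym, a thyroid hormone-binding protein, was at 13.91.

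Of 10 measured bipolar cell genes E1 held 3 and H1 held none, against 2 each in D1 and F1, 1 in A3 and none in the other 6 cells. The count of E1 is near its share of 25.7% of all compared genes. The genes differed between cells: D1 held Prkca (14.99) and Nyx (13.28). Pcp2, a modulator of G proteins in bipolar cells, was at 14.92 in E1, the floor in H1 and 8.91 or less in the others. Lhx4, a homeodomain factor of bipolar cells and cones, was at 13.57 in E1, and Cabp5, a calcium-binding protein of bipolar cells, was at 13.14, with all other P0 cells under 1000 for both. The ON bipolar gene Trpm1, with Vsx1 and Prkca, was at the floor in both photoreceptors. Gad1, which encodes the GABA-synthesising enzyme of inhibitory neurons, was at 13.92 in E1 and between 13.30 and 15.33 in all 5 amacrine cells, and at the floor in H1 and the 4 ganglion cells. On the second probe set of Gad1 E1 was at the floor, while all 5 amacrine cells were above it. Other genes high in E1 and under 1000 in H1 were H1f2 (15.28), a linker histone held by no other P0 cell, Ap2s1 (14.95), Tmsb10 (14.85), Uqcrb (14.81), Atpif1 (14.81), Foxo3 (14.72) and Dyrk2 (14.70). The part of RNA from a bipolar or amacrine cell in the profile of E1 was not tested.

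Other probe sets of the same gene repeated the split between H1 and E1 for some genes and not for others. Of 32 named genes with several probe sets that H1 held without E1, all probe sets were held by H1 and not by E1 for 14, some were held by neither cell for 16, and E1 held at least 1 for 2 (Gnb1 and Hnrnpu). Of 25 such genes for E1 without H1, the numbers were 8, 16 and 1 (Tmsb10). Clu, Etv5, Ccnd1 and H1f2, picked after their values were seen, are among those whose probe sets all showed the split. All 4 probe sets of Clu lay between 12.68 and 13.15 in H1 and at the floor in E1, and all 3 of Etv5 lay between 12.63 and 14.16 in H1 and at the floor in E1. For Ccnd1 the 3 probe sets lay between 13.43 and 15.11 in H1 and at 7.85 or less in E1. In the other direction, the 3 probe sets of H1f2 lay between 12.91 and 15.28 in E1 and at the floor in H1. For Neurod4, 2 of 3 probe sets were at 14.58 and 14.66 in E1 and the last was at the floor in both cells. Pcp2 was alike, with 13.68 and 14.92 in E1 and a last probe set at the floor in both, and of 2 probe sets of Cabp5 1 was at the floor in both.

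**Figure D4:**
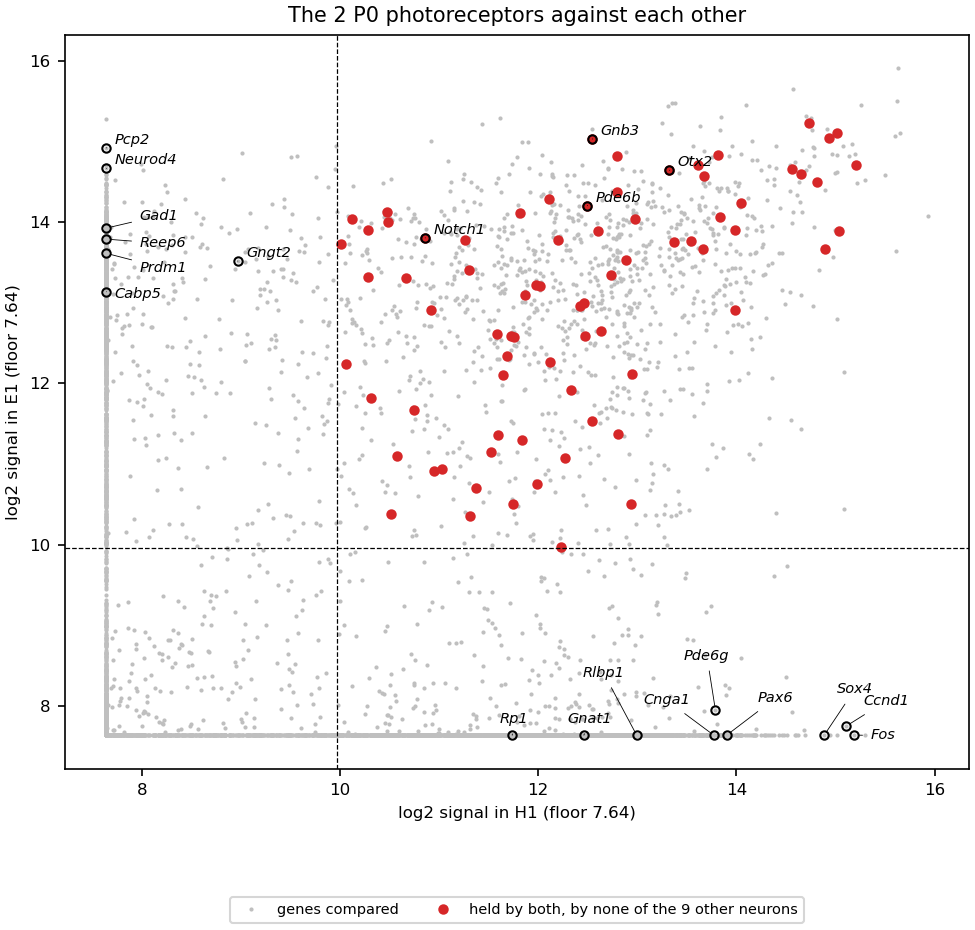
Log2 signal of each compared gene in H1 (horizontal) and E1 (vertical), with dashed lines at the threshold of 9.97 and the 76 genes held by both and by no other P0 neuron in red. The rod genes Cnga1 and Gnat1 lie along the lower edge, held by H1 only. The rod gene Reep6 lies along the left edge with Pcp2, Neurod4 and Prdm1, held by E1 only. The rod gene Pde6b was held by both.

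Markers of blood, vessels and pigment were sparse. Hba-a2, an alpha-globin of red blood cells, had signals of 14.65 to 16.32 in all 11 cells and did not distinguish the types, while Hba-a1 was at the floor in all 11. Hbb-b2, a beta-globin, was at 13.31 in E1 and 9.43 in H1. Kdr, the VEGF receptor known from vessels and retinal progenitors, was at 14.01 in H1 and the floor in E1. Amacrine cells F6 (12.04) and D1 (10.46) also held Kdr. Of 18 genes in the blood, vessel and immune list each photoreceptor held 2, and Pecam1, Cdh5, Flt1 and Cd34 were at the floor in both. Among 13 pigment epithelium and lens genes H1 held Pmel (12.35) and E1 held Dct (13.82), both made in pigment cells, while Rpe65, Mitf, Tyr and Tyrp1 were at the floor in both photoreceptors. The part of RNA from such cells in these values was not tested.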

How the data were processed

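Gene expression was measured in single cells on Affymetrix mouse expression arrays, 1 array per cell, and no sequencing was involved. The deposited values are signal intensity on a linear scale, which the authors computed with MAS5, per the submitters' processing notes and the design text. No detection calls were used. Of 45101 probe sets, 34958 had 1 gene symbol, 932 several and 9211 none, and 34754 of the first were matched to RefSeq by gene number. Each array was scaled to a 2% trimmed mean of 500, raised to 200 and log2 transformed in Python 3.11.15 with pandas 2.3.3. A gene was represented by whichever of its probe sets averaged highest in the 11 P0 cells. Oligo dT priming and 35 cycles of PCR add spread between cells, a gene at the floor may be expressed, and 11 arrays set the precision.

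With 1 sample per type no test was run, and no error is given across types. The members and the 19 gene lists were chosen with earlier results of these data known. Named genes were the 15 largest differences in each direction (above all 9 others in both photoreceptors, or held by neither and by at least 7 of the 9 others), the 12 highest in each photoreceptor without the other with the 6 highest that no other cell holds, all members of the photoreceptor and cone lists, and up to 6 of every other list, to which further list members and those said to be picked afterwards were added. Alternatives covered the floor, the threshold, normalization, the choice of probe set, weights, filters and each cell left out.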

Additional observations from a re-analysis of the deposited data

Results flagged for a closer look

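Among 100 groups of ganglion or amacrine cells (genes held, list means and the 30 genes furthest apart), 13 had a cell far from the others by Dixon's criterion, where chance gives about 1 in 20 in general. That rate does not apply to the genes named here, which were chosen for low signals in these cells: with the other cells of a type at the floor, any signal above it meets the criterion. Ganglion cell A6 stood above the other 3 for Cdhr1 (9.85), Crx (9.88), Rom1 (8.48) and Nrl (7.67), and for the mean of the pigment epithelium and lens list (7.84). Amacrine cell D1 stood above the other 4 for Rbp3 (7.73), Cdhr1 (7.69), Tulp1 (8.38), the mean of the bipolar list (9.24) and the mean of the pigment epithelium and lens list (7.74). Ganglion cell C6 stood high for Sag (9.20) and Ankrd33b (8.40), and amacrine cell A4 for the mean of the horizontal cell list (8.58). All photoreceptor genes among these stayed under the threshold of 9.97, in groups otherwise at the floor.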

How the results depend on the processing

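Of the 193 genes picked by the naming rules, no higher or lower gene changed sign under any alternative that was run. Higher genes named outside those rules, such as Ctbp2, Notch1 and Rd3, were not followed one by one. The order of some counts turned. Genes held by H1 only outnumbered those of E1 only, 1960 to 1141, except after quantile normalization (1685 to 1697). Higher genes outnumbered lower genes, 361 to 309, except with a floor of 100 (424 to 550), without A6 (340 to 370) and without A4 (345 to 352). The count of 361 higher genes became 229 with a floor of 400 and 172 with the mean over the probe sets of a gene. The count of 309 lower genes became 144 with a floor of 400 and 118 with the mean over probe sets, which also reduced the genes held by both photoreceptors from 1131 to 704. Leaving out each cell in turn gave 340 to 1148 higher genes, 298 to 660 lower genes and 78 to 402 genes held by the photoreceptors and by none of the others. The highest values of these ranges came from leaving out a photoreceptor, when only 1 had to hold a gene: without H1 the counts were 1148, 660 and 289, and without E1 the higher and restricted genes numbered 1131 and 402. The 15 leading higher and 15 leading lower genes kept their call under every alternative except the mean over probe sets, under which 13 and 10 did. The median difference over all compared genes was -0.47, and -0.35 after quantile normalization. The cause of these shifts was not tested. No paired analysis was possible because the results come from no test. The arrays hold 1 cell each, so technical and biological differences between cells cannot be told apart, and H1 and E1 are the whole sample of P0 photoreceptors.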

Other observations

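The adult rod, which took no part in any comparison, held 1344 (15.2%) of the 8843 compared genes. It held 18 of the 76 genes (23.7%) restricted to both P0 photoreceptors and 292 of the 1055 (27.7%) that both photoreceptors and at least 1 other P0 neuron held. Of the genes held by H1 and no other P0 cell it held 48 of 326 (14.7%), and of those held by E1 and no other P0 cell 25 of 213 (11.7%). The shares of the genes held by a single photoreceptor lay near that of all compared genes, and the shares of the genes held by both lay above it, without a test.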
